A study of Mus musculus with 24 samples.

Results

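Osteocalcin and matrix Gla protein are small secreted proteins whose glutamate residues are carboxylated with the help of vitamin K. Osteocalcin, also called bone Gla protein, is made by mature osteoblasts and binds the mineral of bone; the mouse has a cluster of 3 copies, Bglap, Bglap2 and the related Bglap3. Matrix Gla protein, Mgp, is best known as an inhibitor of calcification in arteries and cartilage, where vascular smooth muscle cells and chondrocytes make it. The enzyme Ggcx adds the carboxyl groups, and Vkorc1 recycles the vitamin K that it uses.

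The 4 genes were taken by their Ensembl identifiers from a table of 54232 gene rows, in all 24 libraries: Bglap (ENSMUSG00000074483), Bglap2 (ENSMUSG00000074486), Bglap3 (ENSMUSG00000074489) and Mgp (ENSMUSG00000030218). The libraries are bulk RNA-seq of polyadenylated RNA from osteoblast cultures grown from pooled calvariae (skull bones) of newborn mice. They form 8 groups of 3 libraries, high bone mass (HBM) and wild-type (WT) cultures at days 0, 10, 15 and 21 of osteoblast differentiation. Cultures carry the batch numbers 18, 19 and 21, once per genotype and day. The libraries of 1 genotype and batch number are called a culture here; the labels do not state that those of different days came from the same one, and comparisons that pair the days or sum them assume it. The labels call the 3 cultures of each genotype independent pools and leave the mutation behind the HBM phenotype unnamed; the series title names the processing of the procollagen C-propeptide. All 10 osteoblast markers checked were above 0 in every group. All 4 genes passed the filter on low counts.

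In the mm10 build the osteocalcin genes lie in a row on the minus strand of chromosome 3. Bglap3 is at chr3:88368616-88372743, Bglap2 at chr3:88377736-88378699 and Bglap at chr3:88383501-88384464, with gaps of 4992 and 4801 bases between them. Mgp is at chr6:136872435-136875823, also on the minus strand. No other annotated gene overlaps any of the 4, and each has 4 exons in its main transcript. The levels below are CPM, the count of reads over the exons of a gene relative to the scaled size of its library.

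The coding sequences show how little separates the osteocalcin copies, which bears on how reads could be assigned among them. Each is 285 bases long without the stop codon. Bglap and Bglap2 differ at 4 bases (98.6% identity), with 1 stretch of 241 identical bases. Bglap3 differs from Bglap at 13 bases (95.4% identity) and from Bglap2 at 9 (96.8%). In the Bglap and Bglap2 lines, capitals mark the 4 bases at which these genes differ from each other. In the Bglap3 line they mark the 13 bases that differ from Bglap.
Bglap: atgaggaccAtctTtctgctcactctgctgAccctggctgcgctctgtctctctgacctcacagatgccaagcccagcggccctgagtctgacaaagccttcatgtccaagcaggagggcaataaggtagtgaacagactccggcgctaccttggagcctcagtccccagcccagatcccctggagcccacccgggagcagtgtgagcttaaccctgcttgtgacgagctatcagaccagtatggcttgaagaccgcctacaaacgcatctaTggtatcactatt
Bglap2: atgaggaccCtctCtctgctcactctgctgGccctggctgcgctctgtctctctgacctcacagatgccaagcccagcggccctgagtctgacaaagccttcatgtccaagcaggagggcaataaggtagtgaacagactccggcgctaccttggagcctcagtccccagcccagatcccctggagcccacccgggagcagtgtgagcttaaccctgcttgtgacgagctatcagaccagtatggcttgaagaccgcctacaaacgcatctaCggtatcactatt
Bglap3: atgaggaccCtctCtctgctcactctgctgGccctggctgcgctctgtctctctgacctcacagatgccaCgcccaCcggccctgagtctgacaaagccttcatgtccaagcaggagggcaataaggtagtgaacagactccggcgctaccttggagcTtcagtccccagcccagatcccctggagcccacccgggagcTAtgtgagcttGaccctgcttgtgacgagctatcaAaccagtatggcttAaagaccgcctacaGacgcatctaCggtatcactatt

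Over the whole main transcript, 66.1% of the 75-base windows of Bglap and 73.3% of those of Bglap2 were also found, letter for letter, in another gene's transcripts. Bglap3 shared 9.33% of its windows and Mgp none. The treatment of reads that match several genes is not given in the sources used here, so the split of counts between Bglap and Bglap2 is uncertain, and so is how far either row, or their sum, is short of such reads. The sum was run as an alternative in the fits without pairing, and no call on osteocalcin differed from that on the Bglap row in any of the 11 comparisons. Only day 10 over day 0 had calls for any gene in those fits, so agreement elsewhere could not have failed for lack of calls. The fits with a replicate block were not run on the sum.

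The upstream sequence of Bglap is shown because it holds motifs through which osteoblast factors are known to act on the gene. These are the 250 bases before the start site (chr3:88384467-88384716, minus strand), from RefSeq on GRCm38.p6. Capitals mark 3 motifs. The first, ACCACA, is the core that Runx factors bind. The second, TTACATCA, is the element known as OSE1, on which Atf4 acts. The third, TATAAA, is a TATA box.
Bglap upstream: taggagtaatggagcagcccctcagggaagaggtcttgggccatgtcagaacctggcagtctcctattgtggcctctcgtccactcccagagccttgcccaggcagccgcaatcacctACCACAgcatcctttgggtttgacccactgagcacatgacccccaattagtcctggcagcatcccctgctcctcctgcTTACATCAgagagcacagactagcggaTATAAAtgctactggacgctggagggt
Their first bases are at -132, -54 and -27 from the start site, and none overlaps another. On either strand of 300-base windows reaching from 250 bases before to 50 bases after a start site, ACCACA occurred in 16.8% of 32851 promoters, TTACATCA in 1.1% and TATAAA in 13.6%. None of the 3 Bglap3 windows held any of these motifs letter for letter, and other forms of them, such as variants of the TATA box, were not searched. A match is a run of letters, not a site shown to be bound.

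Bglap, an osteocalcin gene, was close to the detection limit in undifferentiated cultures and was abundant by day 21. In HBM cultures it stood at 0.0819, 0.0519 and 0.166 CPM at day 0 (batches 18, 19 and 21 in this order throughout), 324, 339 and 15.8 at day 10, 935, 714 and 141 at day 15, and 1710, 786 and 283 at day 21. In WT cultures it stood at 0.0909, 0.0853 and 0.223 CPM at day 0, 34.1, 137 and 1.81 at day 10, 232, 458 and 38.7 at day 15, and 568, 559 and 138 at day 21. Batch 21 was the lowest of the 3 in both genotypes on every day from day 10, and the HBM and WT ranges overlapped on every day. Day 0 rested on 3, 2 and 5 counts in HBM and 4, 3 and 8 in WT libraries.

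Bglap2 followed the same course. In HBM cultures it stood at 0.355, 0.208 and 0.664 CPM at day 0, 307, 340 and 24.5 at day 10, 823, 610 and 136 at day 15, and 1357, 737 and 251 at day 21. In WT cultures the values were 0.227, 0.0569 and 0.806 CPM at day 0, 39.6, 128 and 4.40 at day 10, 213, 358 and 40.1 at day 15, and 433, 459 and 122 at day 21. Here too batch 21 was lowest from day 10 on and the genotypes overlapped on each day.

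Bglap3 stayed near 1 CPM or below in most libraries. Its HBM values were 0.0819, 0.0779 and 0 CPM at day 0, 0.572, 1.94 and 0.094 at day 10, 1.48, 2.33 and 0.437 at day 15, and 2.99, 1.71 and 0.702 at day 21. Its WT values were 0.0454, 0.142 and 0 CPM at day 0, 0.181, 0.489 and 0 at day 10, 0.445, 0.921 and 0.185 at day 15, and 0.598, 1.05 and 0.328 at day 21. The most counts in any library were 109, in the HBM culture of batch 18 at day 21. A count of 0 allows up to 0.0996 CPM in the HBM and 0.0834 CPM in the WT library of batch 21 at day 0, and 0.0763 CPM in the WT library of that batch at day 10, taking 3 counts as the limit.

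Mgp was abundant in every library and showed no such course. In HBM cultures it stood at 280, 309 and 860 CPM at day 0, 769, 579 and 658 at day 10, 882, 513 and 812 at day 15, and 965, 475 and 719 at day 21. In WT cultures it stood at 298, 1155 and 1050 CPM at day 0, 773, 764 and 493 at day 10, 1030, 951 and 844 at day 15, and 1097, 458 and 720 at day 21. Its lowest and highest libraries, at 280 and 1155 CPM, were both from day 0, and all neighbouring groups overlapped.

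**Figure D1:**
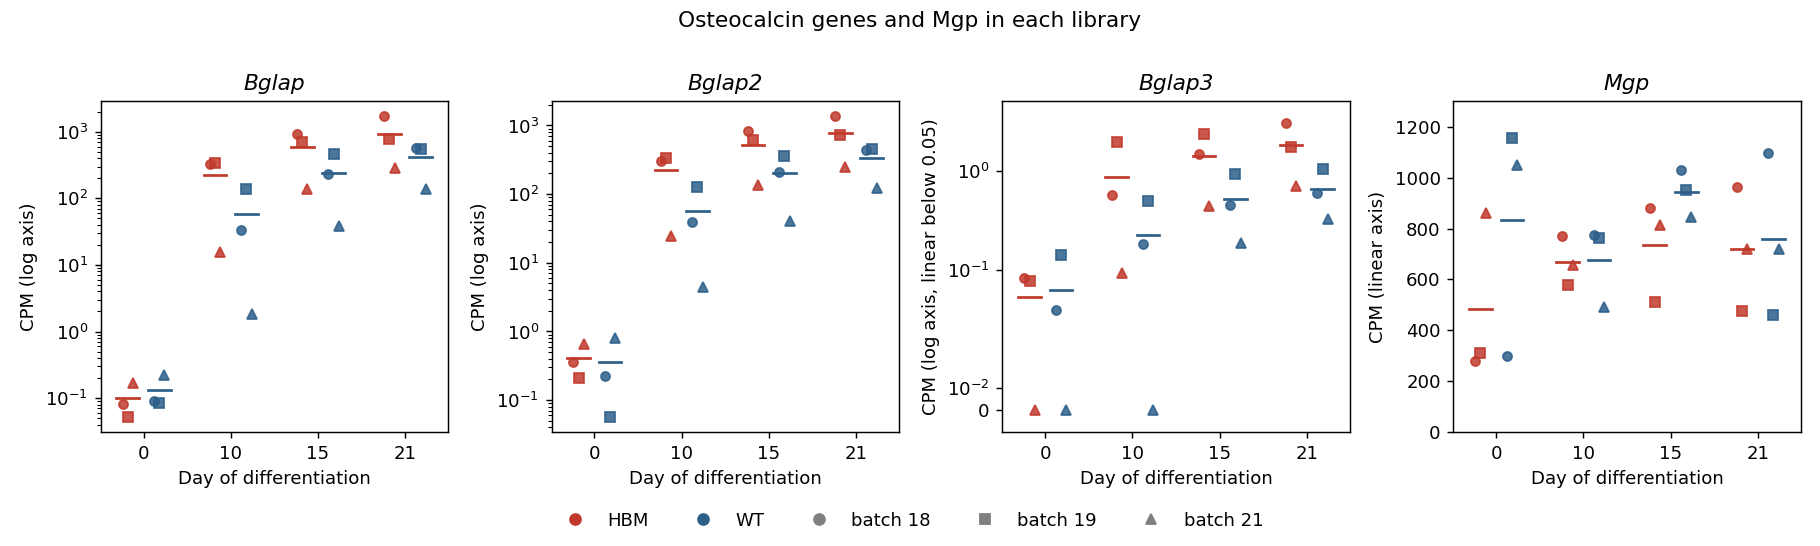
Level of each gene in each library (CPM, on a log axis for the osteocalcin genes, linear below 0.05 for Bglap3, and a linear axis for Mgp) against day of differentiation, with HBM left of WT, symbols for the batches and a bar for the mean of 3 cultures. Bglap and Bglap2 lie orders of magnitude higher from day 10 than at day 0, Bglap3 stays at or below 2.99 CPM, and batch 21 (triangles) lies lowest in all 3 from day 10, whereas Mgp spans 280 to 1155 CPM with no common course.

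By group mean, Bglap ran from HBM day 0 (0.0999 CPM) through WT day 0 (0.133), WT day 10 (57.5), HBM day 10 (226), WT day 15 (243), WT day 21 (421) and HBM day 15 (597) to HBM day 21 (926). The only neighbours in this order whose libraries did not overlap were WT day 0 and WT day 10. For Bglap2 the lowest 3 groups were WT day 0 (0.364 CPM), HBM day 0 (0.409) and WT day 10 (57.3), and HBM day 0 and WT day 10 were the only neighbours without overlap. Bglap3 ran from 0.0533 CPM in HBM day 0 to 1.80 in HBM day 21, with 3 HBM groups at the top, and Mgp from 483 in HBM day 0 to 942 in WT day 15. Neighbouring groups of these genes all overlapped.

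Divided by exon length, the genes can be set beside each other, as RPKM, the CPM per kilobase of exon (mean ± SD of 3 cultures). The length is that of all annotated exons of a gene together, 618 bases for Bglap, 471 for Bglap2, 2629 for Bglap3 and 1187 for Mgp. The main transcripts have 440, 471, 717 and 617 bases in the same order. On those lengths Bglap, Bglap3 and Mgp would stand higher beside Bglap2, so the order of Bglap, Bglap2 and Mgp depends on this choice. In HBM cultures at day 21 Bglap2 stood at 1660 ± 1177, Bglap at 1499 ± 1171, Mgp at 606 ± 207 and Bglap3 at 0.686 ± 0.437 RPKM. In WT cultures at day 21 Bglap2 stood at 718 ± 399, Bglap at 682 ± 397, Mgp at 639 ± 270 and Bglap3 at 0.250 ± 0.138 RPKM. Bglap3 was thus far below its neighbours in the cluster, while Bglap, Bglap2 and Mgp lay within each other's spread in WT. Since most windows of Bglap and Bglap2 are shared and none of Mgp, their levels relative to Mgp and Bglap3 would be too low if reads that match several genes were not counted, and this could not be checked.

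Osteocalcin rose steeply over the first 10 days of differentiation. In HBM cultures Bglap rose 2280-fold (log2 change 11.15 ± 1.89 SE, adjusted p = 0.000474), Bglap2 558-fold (9.12 ± 1.54, adjusted p = 0.000462) and Bglap3 14.6-fold (3.87 ± 1.27, adjusted p = 0.0318). In WT cultures Bglap rose 428-fold (8.74 ± 1.74, adjusted p = 0.00153) and Bglap2 158-fold (7.30 ± 1.45, adjusted p = 0.00153), each by edgeR's quasi-likelihood test with Benjamini-Hochberg adjustment over 16592 genes. Bglap3 had a log2 change of 1.82 ± 1.30 in WT cultures (adjusted p = 0.317), and Mgp one of 0.47 ± 0.46 in HBM (adjusted p = 0.478) and -0.30 ± 0.46 in WT cultures (adjusted p = 0.658). So 3 of the 4 genes rose in HBM and 2 of 4 in WT, beside 14.1% and 12.2% of all genes tested that rose. The same genes were higher in every day 10 than in every day 0 library, as were 18.9% of all genes in HBM and 17.3% in WT.

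The Bglap3 call in HBM was lost without the HBM day 0 library of batch 18 (adjusted p = 0.0774), 19 (0.0752) or 21 (0.0857), or without the day 10 library of batch 19 (0.186). With only the 6 WT libraries compared in the fit, Bglap (adjusted p = 0.0510) and Bglap2 (0.0526) did not pass. The difference between the genotypes in this step was tested itself and did not pass: the log2 change was larger in HBM by 2.41 ± 2.7 for Bglap, 1.82 ± 1.85 for Bglap2, 2.05 ± 1.92 for Bglap3 and 0.77 ± 0.65 for Mgp, each with an adjusted p of 0.9999 by edgeR.

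The size of the steps differed widely between cultures. From day 0 to day 10 the ratios of Bglap in batches 18, 19 and 21 were 3952 (exact 95% counting interval 1352 to 19170), 6523 (1805 to 53870) and 95.5 (40.7 to 295) in HBM cultures. In WT cultures they were 375 (146 to 1379), 1601 (548 to 7765) and 8.12 (3.91 to 19.5). For Bglap2 they were 866, 1635 and 36.96 in HBM and 174, 2252 (623 to 18600, over 2 counts at day 0) and 5.46 in WT. Batch 21 thus had the smallest first step of both genes in both genotypes. With the batch as a replicate block within each genotype, the rise in WT was 267-fold for Bglap and 88.6-fold for Bglap2 (adjusted p = 6.89e-05 and 0.000414 by edgeR). In HBM it was 1890-fold and 420-fold (adjusted p = 7.65e-06 and 4.50e-05 by edgeR). Of 16592 genes that fit called 6389 in WT and 6342 in HBM, in either direction. From day 10 to day 15 the Bglap ratios were 2.89, 2.11 and 8.88 in HBM and 6.81, 3.36 and 21.4 in WT cultures. From day 15 to day 21 they were 1.83, 1.10 and 2.01 in HBM and 2.44, 1.22 and 3.56 in WT. Each of the 6 cultures was higher at the later day in both of these later steps, and batch 21, lowest at day 10, had the largest ratio of the 3 batches in each of them and each genotype.

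The maturation from day 10 to day 21 was not called without pairing. For day 21 over day 10 Bglap had log2 changes of 2.03 ± 1.17 in HBM (adjusted p = 1) and 2.87 ± 1.21 in WT (adjusted p = 0.9989), and none of the 4 genes passed edgeR in either genotype. No gene of the 16592 did (0%). DESeq2 called 3 genes in HBM and 18 in WT, and 535 in HBM and 707 in WT had an edgeR p under 0.05 before adjustment; of the 4 genes, Bglap and Bglap2 in WT reached an unadjusted p under 0.05 (0.0279 and 0.0313). The WT libraries of day 21 were nonetheless all above those of day 10 for Bglap, as were those of 6.41% of all genes. With the culture as a replicate block, which pairs the days of a culture, Bglap rose 14.4-fold in WT (log2 change 3.85 ± 0.74, adjusted p = 0.0358; 0.452% of all genes rose) and had an adjusted p of 0.225 in HBM (0.0784% of all genes rose), and Bglap2 had one of 0.0972 in WT and 0.405 in HBM. The difference between the genotypes in this change did not pass, with a Bglap log2 difference of -0.84 ± 1.59 without and -1.39 ± 0.956 with the block (adjusted p = 0.9999 and 1). Mgp had log2 changes of 0.11 ± 0.46 in HBM and 0.16 ± 0.46 in WT (adjusted p = 1 and 0.9989).

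Between the genotypes, osteocalcin was higher in HBM than in the WT culture of the same batch in every batch and on every day from day 10. For Bglap the ratios of HBM to WT in batches 18, 19 and 21 were 9.49, 2.48 and 8.77 at day 10, 4.03, 1.56 and 3.63 at day 15, and 3.01, 1.41 and 2.05 at day 21. For Bglap2 they were 7.76, 2.65 and 5.58 at day 10, 3.87, 1.71 and 3.39 at day 15, and 3.13, 1.61 and 2.06 at day 21. Bglap3 counted 24, 66 and 4 reads in HBM and 7, 20 and 0 in WT at day 10, and its ratios were 3.32, 2.54 and 2.36 at day 15 and 5.001, 1.64 and 2.14 at day 21. The ratio of Bglap was smaller at each later day in all 3 batches, and batch 19 had the smallest ratio of Bglap throughout. In all, 3 of the 4 genes were higher in HBM in 3 of 3 batches on each of these days, beside 21.5% of all genes at day 10, 19.0% at day 15 and 18.3% at day 21. Bglap and Bglap2 share most of their sequence, so they are not independent in this count or in others like it. Bglap3 in batch 21 at day 10 rested on 4 reads against 0.

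**Figure D2:**
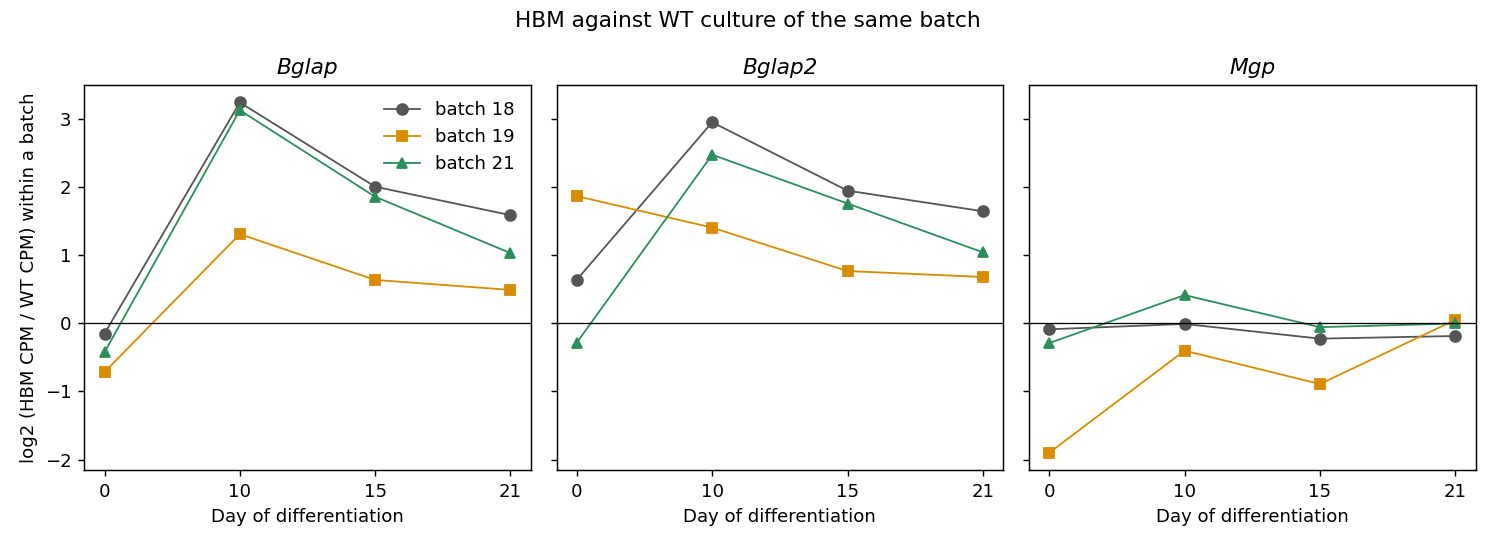
Log2 ratio of the HBM to the WT level in the same batch for Bglap, Bglap2 and Mgp against day, 1 line per batch and a horizontal line at no difference. Both osteocalcin genes lie above 0 in all 3 batches at days 10, 15 and 21, the lowest points of Mgp are those of batch 19 at days 0, 10 and 15, and the day 0 points of Bglap and Bglap2 rest on 2 to 29 counts per library.

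Against the spread between unpaired cultures this difference did not pass. At day 10 the log2 change of HBM over WT was 1.98 ± 1.16 for Bglap, 1.97 ± 1.08 for Bglap2 and 1.92 ± 1.07 for Bglap3, at day 15 it was 1.30 ± 1.14, 1.36 ± 1.06 and 1.44 ± 1.003, and at day 21 it was 1.14 ± 1.14, 1.21 ± 1.05 and 1.44 ± 0.9997, each with an adjusted p of 1 by edgeR. At day 0 the values were -0.44 ± 2.41, 0.15 ± 1.52 and -0.13 ± 1.55 (adjusted p = 1 by edgeR for each). None of the 4 genes passed on any day and none had an unadjusted p under 0.05, and 0% of all genes were called on each. The HBM and WT libraries overlapped for all 4 genes on each day, while 3.12%, 11.7%, 8.78% and 9.38% of all genes did not overlap at days 0, 10, 15 and 21. The genes at an unadjusted p under 0.05 numbered 701, 476, 347 and 356 at days 0, 10, 15 and 21, and DESeq2 called 0, 2, 0 and 1 genes and none of the 4.

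With the batch as a replicate block within each day, which sets each HBM culture against the WT culture of its number, the day 10 difference passed for Bglap and Bglap2. Bglap was 5.68-fold higher in HBM (log2 change 2.51 ± 0.38, adjusted p = 0.0138) and Bglap2 4.82-fold (2.27 ± 0.31, adjusted p = 0.0138), while Bglap3 had 1.95 ± 0.43 (adjusted p = 0.0563). These were 2 of 4 genes, beside 0.669% of all genes higher in HBM in that fit. The fit counts the pairs of 1 batch number on different days as separate, although they may share cultures. At day 15 the adjusted p was 0.0817 for Bglap, 0.0576 for Bglap2 and 0.0930 for Bglap3, and at day 21 it was 0.205, 0.115 and 0.105, so none passed there, beside 0.241% and 0.157% of all genes higher.

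The paired call at day 10 depended on which batches were in the fit. Without batch 19 the adjusted p was 0.000403 for Bglap and 0.00346 for Bglap2, and both genes then passed at day 15 (0.00674 and 0.0343) and day 21 (0.0384 and 0.0395) too. With all 3 batches 217, 55 and 40 of 16592 genes were called at days 10, 15 and 21. Without batch 19 fewer genes were called at days 10 and 15 and more at day 21. Without batch 18 the adjusted p was 0.116 for Bglap and 0.0660 for Bglap2 at day 10, and without batch 21 it was 0.159 and 0.130. Fits without a batch rest on 2 pairs, and the log2 change at day 10 lay between 2.06 and 3.21 for Bglap and between 1.89 and 2.76 for Bglap2 in them.

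Summing the counts of days 10, 15 and 21 gave 1 value per culture. Bglap then stood at 968, 608 and 148 CPM in HBM and at 270, 371 and 53.7 CPM in WT cultures of batches 18, 19 and 21. Bglap2 stood at 813, 556 and 138 CPM in HBM, against 222, 303 and 50.5 CPM in WT cultures. Batches 18 and 19 of HBM were above all WT cultures and batch 21 of HBM was not, so the groups overlapped, while those of 10.5% of all genes did not. The summed ratio of HBM to WT was 3.58, 1.64 and 2.76 for Bglap, and all 3 osteocalcin genes were higher in 3 of 3 batches, as were 23.0% of all genes. The unpaired log2 changes were 1.31 ± 0.88 for Bglap, 1.39 ± 0.84 for Bglap2 and 1.57 ± 0.77 for Bglap3 (adjusted p = 1, 0.997 and 0.982 by edgeR over 17728 genes; 0% of genes called, 862 at an unadjusted p under 0.05 and 90 by DESeq2).

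With the batch as a block Bglap2 was 2.64-fold (adjusted p = 0.0448) and Bglap3 3.00-fold (adjusted p = 0.0448) higher in HBM, beside 1.40% of all genes higher, and Bglap at 2.53-fold did not pass (adjusted p = 0.0533). Without batch 18 all 3 passed (0.0374 for Bglap, 0.0180 for Bglap2 and 0.0406 for Bglap3). That fit also called more genes in all than the 419 of 17728 called with all 3 batches. Without batch 19 (0.0529, 0.0546 and 0.145) and without batch 21 (0.166, 0.144 and 0.133) none of the 3 passed.

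Mgp passed no test between the genotypes. Its ratios of HBM to WT in batches 18, 19 and 21 were 0.942, 0.268 and 0.819 at day 0, 0.995, 0.758 and 1.34 at day 10, 0.856, 0.540 and 0.962 at day 15, and 0.880, 1.04 and 0.999 at day 21. It was lower in HBM in 3 of 3 batches at days 0 and 15, as were 14.8% and 23.6% of all genes, and went both ways at days 10 and 21. The log2 change of HBM over WT was -0.79 ± 0.46 at day 0, -0.02 ± 0.46 at day 10, -0.36 ± 0.46 at day 15 and -0.08 ± 0.46 at day 21 (adjusted p = 0.901, 1, 1 and 1 by edgeR). Neither these nor the paired adjusted p of 0.289, 0.9997, 0.664 and 0.969 passed (0.127% of all genes called at day 0 in the paired fit), nor did the summed counts (-0.17 ± 0.23, adjusted p = 1; paired 0.424). The widest gap was in batch 19 at day 0. The cartilage collagen Col2a1 was highest there, at 8774 CPM in that HBM and 15860 CPM in that WT library. The other day 0 libraries held 755 to 3790 CPM of it. Mgp stood at 309 CPM in that HBM and 1155 CPM in that WT library. In batch 21 at day 0 Mgp stood at 860 CPM in HBM and 1050 CPM in WT. The part of Col2a1 in the result was not tested.

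Within the osteocalcin cluster the share of Bglap2 in the counts of Bglap and Bglap2 was higher where the level was low. From day 10 to day 21 it lay between 44.3% and 60.8% in HBM and between 43.3% and 70.9% in WT libraries. The highest shares, 60.8% (1718 counts, exact 95% binomial interval 58.4 to 63.1) in HBM and 70.9% (244 counts, 64.8 to 76.5) in WT, were both of batch 21 at day 10, the libraries with the lowest levels. Over the 18 libraries the share was lower where the summed level of both genes was higher, with Pearson's r of -0.894 and Spearman's rho of -0.765 against the log10 level; the libraries share cultures and both measures use the same counts. Intervals cover counting error only.

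Per culture over days 10, 15 and 21 the share averaged 49.0% ± 2.96 in HBM and 50.1% ± 5.44 in WT (SD, n = 3 each). A two-sided exact permutation test of it, which did not pair the cultures by batch, gave p = 0.8. The smallest p this test allows is 0.1. By day the share was 53.2% ± 6.61 in HBM and 57.7% ± 11.8 in WT at day 10, 47.3% ± 1.59 and 47.5% ± 3.51 at day 15, and 46.6% ± 2.10 and 45.1% ± 1.80 at day 21. At day 0 it was 80.0% to 81.3% in HBM and 40.0% to 78.4% in WT libraries, over 5 to 37 counts. Bglap3 took at most 0.285% of the counts of the 3 genes from day 10 on.

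**Figure D3:**
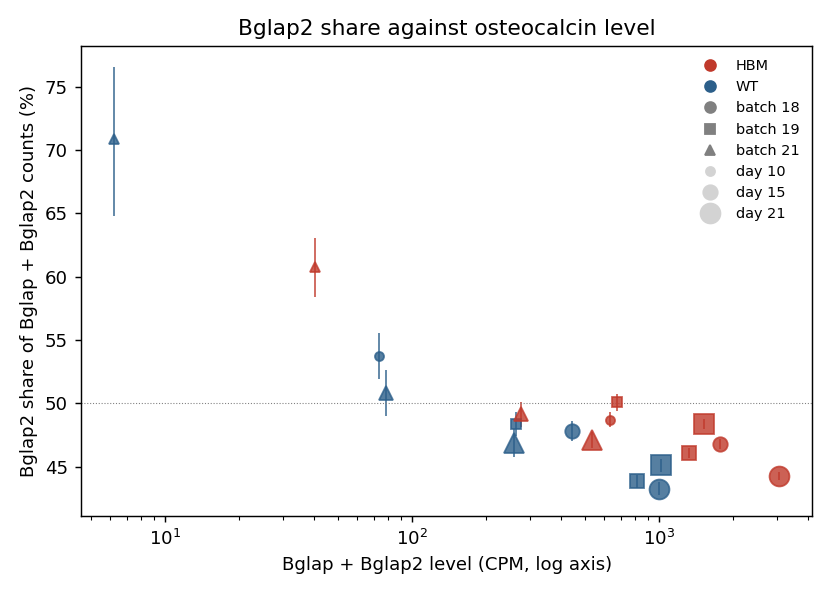
Share of Bglap2 in the counts of Bglap and Bglap2 (%) against their summed level (CPM, log axis) in the 18 libraries of days 10 to 21, with exact 95% binomial intervals, larger symbols for later days and a dotted line at equal counts. The 2 lowest libraries, both of batch 21 at day 10, have the highest shares, 60.8% in HBM and 70.9% in WT.

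Across all 24 libraries, on the scale of log2(CPM + 1), Bglap and Bglap2 ran together (Pearson's r = 0.998). On this scale Bglap3 followed them more loosely (0.827 with Bglap), and Mgp did not follow them (0.321 with Bglap). Adding 1 compresses the values of Bglap3, which stayed at or below 2.99 CPM. By rank, Spearman's rho with Bglap was 0.994 for Bglap2, 0.922 for Bglap3 and 0.198 for Mgp. The genes whose course was most like that of Bglap were Col13a1 (r = 0.993), Slc36a2 (0.989), Mlip (0.987), Bmp3 (0.986) and Col22a1 (0.986). At day 21 Col13a1, a transmembrane collagen, averaged 115 CPM in HBM and 68.6 CPM in WT, Col22a1, a collagen of tissue junctions, 220 and 113 CPM, and Bmp3, a secreted factor of the BMP family, 71.9 and 33.5 CPM. For Mgp the closest genes were Eapp (r = 0.835), 1810058I24Rik (0.830), Sdf2 (0.828), Ebpl (0.820) and 1600014C10Rik (0.818). Within days 10 to 21 alone (18 libraries) the r of these lay between 0.479 and 0.599, while those of the genes most like Bglap lay between 0.9501 and 0.982. The libraries share days and cultures, so these values describe courses and are not tests.

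The vitamin K cycle is needed by both kinds of Gla protein. Of its 10 genes, 1 rose and 1 fell in HBM and none rose and 2 fell in WT cultures, with median log2 changes of 0.02 and -0.21, beside medians over all genes of -0.00 and -0.02. Of all genes, 14.1% rose and 12.4% fell in HBM and 12.2% rose and 14.1% fell in WT, so these counts are near or below the share of all genes. Vkorc1, the reductase that recycles vitamin K, rose 3.42-fold in HBM (adjusted p = 0.00135), with 89.7 ± 18.4 CPM in day 10 and 26.2 ± 5.83 CPM in day 0 cultures (mean ± SD of 3 cultures, as for the genes below). In WT it had 71.7 ± 14.6 CPM in day 10 and 43.2 ± 28.1 CPM in day 0 cultures (adjusted p = 0.116). The WT library of batch 19 at day 0 held 74.98 CPM of it, against 21.8 and 32.7 in the other WT libraries of that day. Nqo1, a quinone reductase, fell in both genotypes by edgeR (log2 change -1.21 in HBM, adjusted p = 0.00315, and -0.94 in WT, 0.0148). Ggcx, the carboxylase itself, averaged 64.2 ± 2.64 CPM in HBM and 65.5 ± 0.843 CPM in WT cultures at day 10, with log2 changes from day 0 of 0.07 and 0.09 (adjusted p = 0.773 and 0.692).

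Of 13 other Gla proteins 8 were tested, and 2 rose in HBM and 3 in WT between days 0 and 10, with none falling (median log2 changes 0.67 and 1.21), beside 14.1% of all genes that rose in HBM and 12.2% in WT. Gas6, a ligand of the Axl receptor family, rose 4.59-fold in HBM and 3.89-fold in WT (adjusted p = 0.000633 and 0.00137), to 1984 ± 839 CPM in HBM and 1870 ± 711 in WT cultures at day 10. F7, coagulation factor VII, rose in both but only to 1.09 ± 0.791 CPM in HBM and 0.689 ± 0.505 in WT (adjusted p = 0.00293 and 0.00536). Ucma, a Gla protein of cartilage, rose 5.65-fold in WT (adjusted p = 0.0180) and stood at 3.17 ± 1.19 CPM in HBM and 8.62 ± 4.83 in WT cultures at day 10. Of 5 genes of osteocalcin's proposed receptors and hormone control 2 were tested and none passed; Gprc6a, a proposed receptor, did not pass the filter, with at most 0.141 CPM at day 10. Ptprv, a phosphatase reported in mice to act on osteocalcin activity, stood at 105 ± 13.6 CPM in HBM and 94.6 ± 36.0 in WT cultures at day 10 (adjusted p for day 10 over day 0 of 0.413 and 0.278 by edgeR).

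Among 18 transcription factors reported on the osteocalcin promoter, all tested, 2 rose and 3 fell in HBM and 1 rose and 4 fell in WT cultures between days 0 and 10, with median log2 changes of 0.13 and -0.01. These counts are close to the share of all genes (14.1% rose and 12.4% fell in HBM, 12.2% and 14.1% in WT) and are no result about the list as a whole. Dlx3, a homeobox activator, rose 113-fold in HBM and 33.5-fold in WT (adjusted p = 0.00115 and 0.00610), and Sp7, the osteoblast factor osterix, rose 4.37-fold in HBM (0.0196) with 1.73-fold in WT (0.357). Msx2, a homeobox repressor, fell in both (log2 change -2.01 in HBM and -2.15 in WT, adjusted p = 0.0171 and 0.0120), as did the AP-1 factor Fosl2 (-0.73 and -0.58; 0.00934 and 0.0331). Hdac4, a corepressor of Runx2, fell in HBM (-0.74, 0.0155), and Atf4, which acts on OSE1, fell in WT (-1.05, 0.00831; -0.71 and 0.0576 in HBM). Runx2, the master factor of osteoblasts, averaged 90.8 ± 22.9 CPM in HBM and 81.0 ± 16.8 in WT cultures at day 10 (adjusted p for its change 0.426 and 0.408), and Vdr, the vitamin D receptor, 33.5 ± 18.6 and 25.1 ± 13.9 CPM (0.618 and 0.901). The factors named here as activators and repressors are so known from other studies, and their part in the osteocalcin step was not tested.

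For Mgp the list of binding partners and receptors held 10 genes, of which 5 rose and 1 fell in HBM and 6 rose and 1 fell in WT (median log2 changes 0.74 and 0.73), beside 14.1% of all genes that rose and 12.4% that fell in HBM and 12.2% and 14.1% in WT. Bmp2, a BMP ligand that Mgp binds, rose 3.31-fold in HBM and 3.18-fold in WT (adjusted p = 0.00177 and 0.00237), and Bmp4, another BMP ligand, 2.04-fold and 2.11-fold (0.0101 and 0.00770). Fn1, fibronectin, fell in both (log2 change -1.89 and -1.54, adjusted p = 0.000323 and 0.00143). Eln, elastin, was at 383 ± 307 CPM in HBM and 333 ± 241 in WT cultures at day 10 and rose in both (adjusted p = 0.00456 and 0.0111), and Tgm2, a transglutaminase that cross-links matrix, rose 2.53-fold in HBM and 1.82-fold in WT (0.00117 and 0.0181). Vtn, vitronectin, passed in both but stayed at or below 0.544 CPM in each day 10 library.

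Among 8 other inhibitors of mineralization 7 were tested, of which 3 rose and 1 fell in HBM and 2 rose and 1 fell in WT (median log2 changes 0.65 and -0.16), beside the same shares of all genes (14.1% and 12.4% in HBM, 12.2% and 14.1% in WT). The Wnt inhibitor Dkk1 averaged 15.8 ± 17.7 CPM in HBM and 4.01 ± 5.71 in WT cultures at day 10 and rose in both (adjusted p = 0.00668 and 0.0185). Abcc6, a transporter whose loss leads to ectopic calcification, rose 5.22-fold in HBM and 4.69-fold in WT (0.00252 and 0.00329) to at most 3.32 CPM. Ank, known for bringing pyrophosphate out of cells, fell in HBM (log2 change -0.62, adjusted p = 0.00284), and Spp1, osteopontin, fell in WT (-2.07, 0.0153; -1.22 and 0.125 in HBM). Sost, sclerostin, was listed with 0 counts in all day 0 libraries and reached 7.51 ± 7.47 CPM in HBM (adjusted p = 0.0438) and 3.75 ± 5.94 in WT cultures at day 10.

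**Figure D4:**
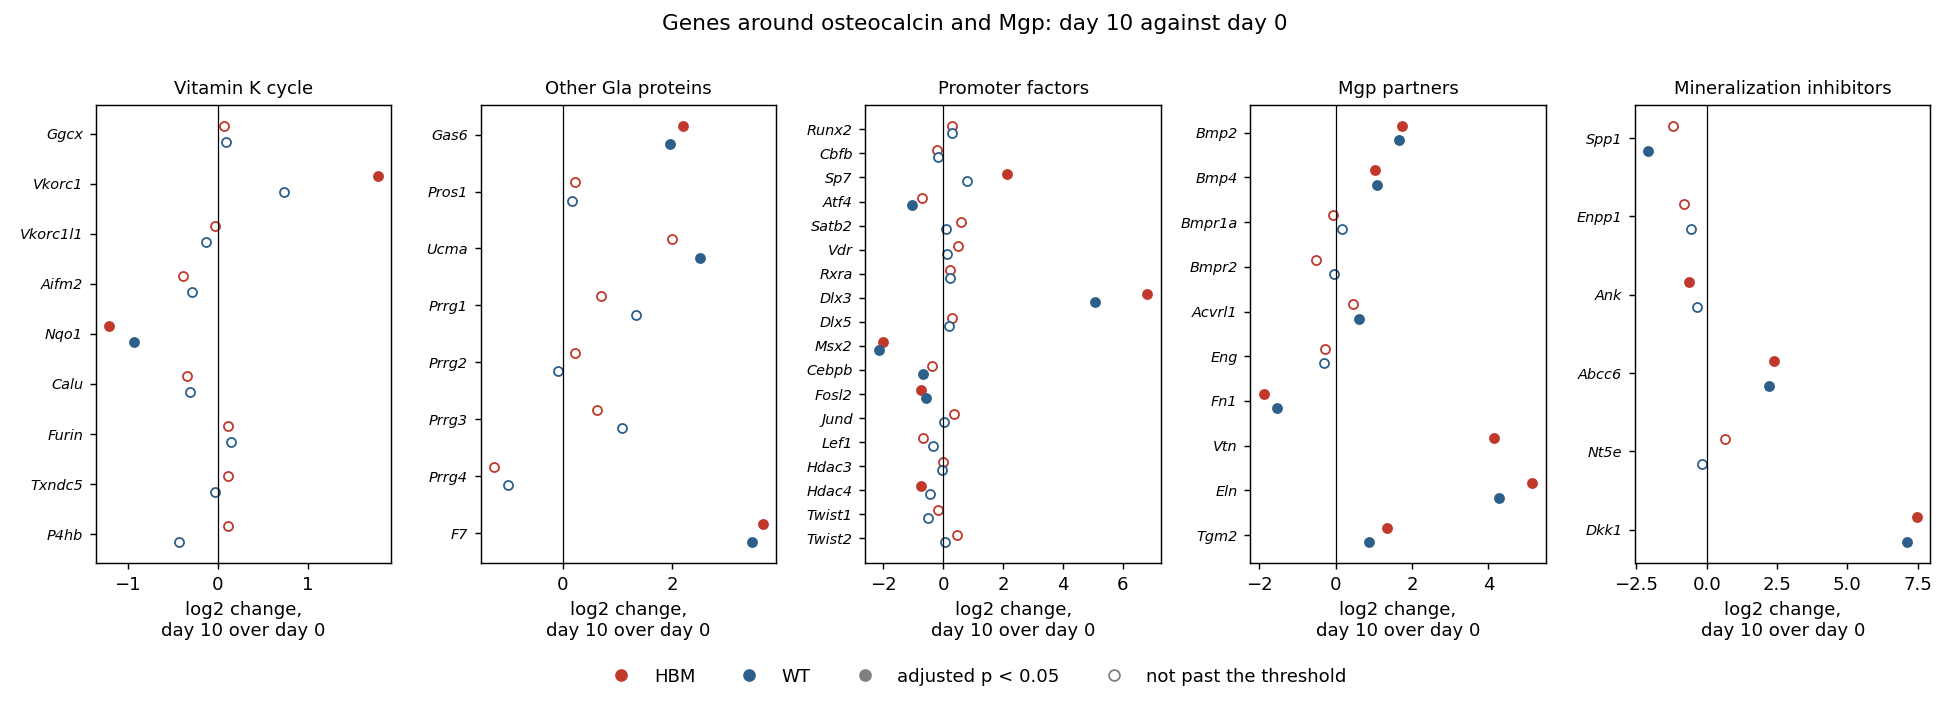
Log2 change of day 10 over day 0 for the genes of 5 lists around osteocalcin and Mgp, HBM in red above WT in blue, filled where the adjusted p was under 0.05; each panel has its own scale. Gas6, Dlx3, Bmp2, Eln, Abcc6 and Dkk1 are filled to the right in both genotypes and Nqo1, Msx2, Fosl2 and Fn1 to the left. Sost and the WT point of Vtn are left out because their day 0 libraries had 0 counts, and 1 gene of the first list is not drawn.

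None of these 6 lists held a gene that passed between HBM and WT on any day without pairing. With the batch as a block at day 10, Dkk1 (log2 change 2.27 ± 0.33, adjusted p = 0.0138), Sp7 (1.18 ± 0.19, 0.0166), Dlx3 (1.88 ± 0.30, 0.0167), Bmp2 (0.75 ± 0.12, 0.0168) and Spp1 (0.97 ± 0.18, 0.0289) were higher in HBM and Nqo1 lower (-0.45 ± 0.09, 0.0383). That is 1 of 10 vitamin K genes, 2 of 18 promoter factors, 1 of 10 Mgp partners and 2 of 7 inhibitors, beside 1.31% of all genes called in either direction. Bmp2 also passed in that fit at day 15 (adjusted p = 0.0254) and day 21 (0.0427), Sp7 and Dkk1 at day 15 (0.0343 and 0.0277).

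Of the genes tested beside the 2 loci, Paqr6 alone rose between days 0 and 10. Paqr6, whose annotated end lies 74 bases from Bglap3, rose 12.3-fold in HBM and 5.34-fold in WT from day 0 to day 10 (adjusted p = 0.00232 and 0.0182), to 5.01 ± 2.23 CPM in HBM and 5.21 ± 1.44 in WT. Smg5 beyond it fell in both (log2 change -0.51 and -0.48, adjusted p = 0.00137 and 0.00229), and Pmf1 and Slc25a44 on the other side did not pass. Of the neighbours of Mgp, BC049715, Erp27 and Arhgdib did not pass in either genotype, and Art4 did not pass the filter. Paqr6 is on the opposite strand, and the strand setting of the counting is not given in the sources used here.

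Markers of other cell types moved with time as well, and their part in the results was not tested. The summed level of 10 osteoblast markers ranged from 87070 to 199100 CPM in HBM and from 62680 to 114500 in WT cultures at day 10, and was lowest in batch 21 in both genotypes on each day from day 10, as osteocalcin was. In HBM the sum was above the WT culture of the same batch on each of these days. Of these markers 8 of 10 rose in HBM and 4 rose and 1 fell in WT between days 0 and 10, beside 14.1% of all genes that rose in HBM and 12.2% that rose and 14.1% that fell in WT. In bulk RNA, fewer cells of a type and less RNA per cell cannot be told apart. The sums, here and below, mostly reflect their most abundant markers. In HBM cultures at day 10 Col1a1, Col1a2 and Sparc averaged 68070, 53000 and 23170 CPM among the osteoblast markers. Lyz2 averaged 4247 CPM among the macrophage and Ctsk 423 CPM among the osteoclast markers.

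The summed level of 8 macrophage markers was 1464 to 10850 CPM in HBM and 2495 to 8331 in WT cultures at day 10, against 41.6 to 957 and 53.0 to 1188 CPM at day 0, with none of the 8 at 0, and was highest in batch 21 on each day in both genotypes. The sums of 8 osteoclast markers (337 to 564 CPM in HBM and 271 to 499 in WT at day 10; Calcr at 0 at days 0 and 10) and of 8 adipocyte markers (270 to 584 and 234 to 422) were also higher than at day 0. Of the cell types known for Mgp, 10 chondrocyte markers summed to 1657 to 3328 CPM in HBM and 1225 to 4592 in WT at day 10, and to 887 to 9103 CPM in HBM (Snorc at 0) and 1368 to 16890 in WT at day 0. The sum of 8 vascular smooth muscle markers was 2557 to 3669 CPM in HBM and 2505 to 3396 in WT at day 10, while 8 endothelial markers summed to at most 7.95 CPM at day 10, with Tie1 and Cldn5 at 0.

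None of the marker lists had a gene that passed between HBM and WT without pairing. With the batch as a replicate block, as in the fit that called osteocalcin, 3 of 10 osteoblast markers were higher in HBM at day 10 (Sp7, Ibsp and Spp1), at day 15 (Sp7, Col1a1 and Col1a2) and in the summed counts (Sp7, Alpl and Ibsp), beside 0.669%, 0.241% and 1.40% of all genes. Ibsp, bone sialoprotein, was 4.50-fold higher in HBM at day 10 (adjusted p = 0.0138 by edgeR). Of 9 chondrocyte markers tested, Col9a2 and Comp were lower in HBM at day 0 (log2 change -2.25 and -1.70, adjusted p = 0.0478 and 0.0469) and Sox9 was lower at day 10 (-0.62, 0.0138) and in the summed counts (-0.35, 0.0477), beside 0.115%, 0.639% and 0.959% of all genes lower. The osteoclast marker Acp5 was lower in HBM at day 0 (-1.01, adjusted p = 0.00906 by edgeR). No other marker passed on any day in that fit, and the part of these differences in the osteocalcin result was not tested.

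Library totals ran from 28039095 to 46987734 counts. Xist, a transcript of female cells, was at most 0.0328 CPM in all batch 21 libraries. In batch 18 it was 279.5 to 528 CPM in HBM and 297 to 322 CPM in WT libraries. In batch 19, the batch with the smallest Bglap ratios, it was 177 to 246 CPM in HBM and 18.1 to 41.7 CPM in WT libraries. Ddx3y, a transcript of male cells, overlapped between the genotypes there, at 33.5 to 48.1 CPM in HBM and 22.2 to 62.8 CPM in WT libraries. In batch 18 it did not overlap, at 12.1 to 18.2 CPM in HBM and 21.5 to 32.6 CPM in WT libraries. In batch 21 it overlapped, at 76.3 to 84.4 CPM in HBM and 61.2 to 91.6 CPM in WT libraries. The part of either gene in the result was not tested.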

How the data were processed

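The authors' deposited table holds raw counts of reads per gene for 24 libraries, named by Ensembl identifiers. Per the submitters' processing notes it was made with cutadapt 3.4, STAR 2.7.8a and featureCounts (Subread 2.0.1) on mm10; the sources used here do not give the annotation release, the strand setting or the treatment of multiply matching reads. Of 54232 rows, 54164 matched GENCODE M21, which gave symbols, coordinates and coding sequences. The tests were run in edgeR 4.0.16 (R 4.3.3): TMM scaling (factors 0.866 to 1.11), edgeR's filter on low counts over 8 groups (16592 genes kept; 17728 for counts summed per culture), the quasi-likelihood test in 1 model of 8 groups, and Benjamini-Hochberg adjustment over the whole table; an adjusted p under 0.05 was called. SE are the log2 change divided by the root of the test statistic. P-values measure the spread between cultures, and the model without pairing treats the days of a culture as separate libraries. The block within each day likewise treats the pairs of 1 batch number on different days as separate. Alternatives were DESeq2 1.42.0, another normalization, no filter, only the libraries compared, the osteocalcin rows summed, each library left out, and a replicate block. Batch numbers pair the cultures: the labels give the number as a batch, and deviations of HBM and WT libraries from their group means correlated at 0.620 to 0.865 for the same number (12 of 12 pairs) and at -0.749 to 0.177 for others. Libraries of 1 genotype and number correlated at -0.0799 to 0.463 between day 0 and a later day and at 0.443 to 0.873 between later days; that they are 1 culture is assumed. Of the 4 genes, 2 matched the RefSeq promoter table (Bglap and Bglap3). Genes named beyond the members were the 4 of each list with the smallest adjusted p past the threshold in a comparison, the 5 most correlated with Bglap and with Mgp, a few named by role (1 gene that the rule names is not reported here), and the 2 nearest protein-coding genes on each side. The members, lists and tests were chosen with earlier results of these data known. The test without pairing was checked on simulated counts. The simulated libraries were independent, without batches or shared cultures, so this check does not cover either.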

Additional observations from a re-analysis of the deposited data

Results flagged for a closer look

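Bglap was lower in HBM than in WT in 3 of 3 batches at day 0, with a median log2 ratio of -0.42, and higher in 3 of 3 at day 15 (median 1.86) and at day 21 (1.03). The opposite direction in every batch is what singled it out, and the difference between day 0 and these days was not tested. Of all genes, 14.8% were lower in 3 of 3 batches at day 0, and 19.0% and 18.3% were higher at days 15 and 21. Bglap was also higher in 3 of 3 batches at day 10, as were 21.5% of all genes. At day 0 the ratios of HBM to WT were 0.901 (counting interval 0.132 to 5.33), 0.609 (0.0509 to 5.32) and 0.746 (0.192 to 2.59) in batches 18, 19 and 21, over 2 to 8 counts per library, so no direction was detectable at this depth.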

How the results depend on the processing

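Normalization by DESeq2's size factors and no filter on low counts kept the direction and call of every result. DESeq2 changed no call on the 4 genes and called 2 genes between HBM and WT at day 10, 1 at day 21, 90 in the summed counts, and 3 in HBM and 18 in WT for day 21 over day 10. With only the libraries compared in the fit, genes called for day 10 over day 0 numbered 2087 in HBM and 472 in WT, and Bglap (adjusted p = 0.0510) and Bglap2 (0.0526) did not pass in WT by edgeR. The replicate block called 21, 217, 55 and 40 genes between HBM and WT at days 0, 10, 15 and 21 and 419 in the summed counts, and 16 in HBM and 92 in WT for day 21 over day 10. Under the block Bglap and Bglap2 at day 10 (adjusted p = 0.0138 each), Bglap in WT for day 21 over day 10 (0.0358) and Bglap2 and Bglap3 in the summed counts (0.0448 each) passed by edgeR, Mgp at day 10 turned to a log2 change of 0.00 (0.9997), and no other call on the 4 genes changed.

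Fits with the block and without a batch were added after seeing the data. Between HBM and WT they called 56 genes at day 0 without batch 18; 43, 29 and 5 at day 10 without batches 18, 19 and 21; 10, 15 and 1 at day 15; 5, 56 and 2 at day 21; and, in the summed counts, 806 without batch 18 and 1 without batch 19. Without batch 19 Bglap and Bglap2 passed at day 10 (adjusted p = 0.000403 and 0.00346), day 15 (0.00674 and 0.0343) and day 21 (0.0384 and 0.0395) by edgeR. Without batch 18 the summed Bglap (0.0374), Bglap2 (0.0180) and Bglap3 (0.0406) passed. Mgp turned direction without batch 18 at day 10 (0.9992) and day 21 (1) and without batch 19 at day 10 (0.570), and Bglap3 at day 0 without batch 19 (1), none of them called.

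Leaving out each library in turn, genes called for day 10 over day 0 ranged from 2809 to 4415 in HBM and from 2866 to 5484 in WT, and the adjusted p of Bglap3 in HBM from 0.0163 to 0.186. Changes that were not called turned direction in some of these edgeR fits, with adjusted p between HBM and WT at day 0 of 0.938 to 1 for Bglap, 0.778 to 1 for Bglap2 and 0.883 to 1 for Bglap3. For Mgp they were 0.9992 to 0.9999 at day 10, 0.9999 to 1 at day 21, 0.868 to 1 in the summed counts, 0.250 to 0.996 for WT day 10 over day 0, 0.9978 to 1 in HBM and 0.9997 to 1 in WT for day 21 over day 10, and 0.9999 to 1 for the genotype difference in that change, as for Bglap3. The difference in the share of Bglap2 was 1.48 points at day 21 alone, against -1.06 over days 10, 15 and 21; the cause was not tested in any case. Depth limits the day 0 values of Bglap, Bglap2 and Bglap3.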
